A study of Mus musculus with 2 samples.

Results

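The 8 genes described here are Pax7, Myf5, Myod1, Myog, Calcr, Spry1, Chrdl2 and Mef2c, a set of regulators and markers of muscle satellite cells, from quiescence to differentiation. They were matched by symbol among the 32285 genes of the count tables, and no measured value entered the rule. Their transcripts were read in muscle stem cells (MuSC-like cells) and, as background, in every other cell class. MuSC-like cells numbered 400, of which 144 were among the 5437 cells of the DMSO library and 256 among the 5454 cells of the MVC library. Maraviroc (MVC), a small-molecule drug, was given to aged C57BL/6 mice by intraperitoneal injection, and the control mice received the vehicle, DMSO. The treatment was meant to counter muscle ageing. Mononuclear cells of limb muscle were sorted for viability after lysis of red blood cells, and 1 droplet single-cell RNA-seq library was made from each group. How many mice entered each library, and their sex, were not given in the sources used here, and no young or uninjected mice were part of the comparison.

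Satellite cells lie between the myofibre and its basal lamina and rest there until injury. Resting cells carry the paired-box factor Pax7, and on activation they raise Myod1, divide, and then either withdraw to quiescence or switch on myogenin (Myog), fuse and build the contractile apparatus. The calcitonin receptor (Calcr) and the growth factor signalling inhibitor Spry1 are known to hold adult satellite cells in quiescence, and tissue digestion itself is known to start the activation programme.

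The DMSO library held 38748234 UMIs in its kept cells, with a median of 5802 UMIs per cell, and the MVC library held 35518029 UMIs, with a median of 5195. MuSC-like cells had median depths of 6757.5 and 6423.5 UMIs. With 1 library per group no difference between the groups could be set against the spread between mice, so no test was made, and all 95% confidence intervals (CI) below cover counting error only. Barcodes shared by both libraries numbered 8 among the kept cells. MuSC-like cells made up 2.65% of the DMSO library (95% CI 2.24 to 3.11) and 4.69% of the MVC library (95% CI 4.15 to 5.29).

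The MuSC-like cells formed a single cluster, drawn with the 8 genes and the differentiation genes left out of the clustering. All 10 fixed satellite cell markers were detected in both libraries, and 9 of them were raised in the cluster. Its leading genes were Asb5, Hs6st3, Erfe, Gal, Myod1, Col19a1, Tenm4, Nppc, Pax7 and Pde1c. The summed satellite cell markers reached 5058 CPM (UMIs of a gene per 1000000 UMIs of the class) in the DMSO library and 4826 CPM in the MVC library. Markers of fibro-adipogenic progenitors (FAPs) within these cells differed more. They summed to 394 CPM in the DMSO library, with 3 of 8 markers at 0, and to 1480 CPM in the MVC library, with none at 0. Cells in which the markers of another class outnumbered those of satellite cells made up 3.47% (5 cells) and 8.59% (22 cells), and without them the FAP sums were 409 and 475 CPM. Doublet calls were 3 (2.08%) and 13 (5.08%). For the 8 genes, levels without these mixed cells are given where an interval then came to span 1 or a ratio crossed 1.5-fold.

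All 8 genes had at least 20 UMIs in MuSC-like cells. Of the 7 with UMIs in both libraries, Pax7, Calcr and Mef2c were higher in the MVC library by at least 1.5-fold and Chrdl2 was lower by at least as much. Across the 9203 genes with at least 20 UMIs, 14.8% were past 1.5-fold higher in the MVC library and 12.6% past it lower, 27.4% in all. Among 2131 genes with at least 250 UMIs, where counting error is smaller, 10.9% passed (5.87% higher and 5.02% lower), against 3 of the 6 such genes here. Without the cells whose markers of another class were in excess, Calcr (higher) and Chrdl2 (lower) were the remaining genes past 1.5-fold.

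**Figure D1:**
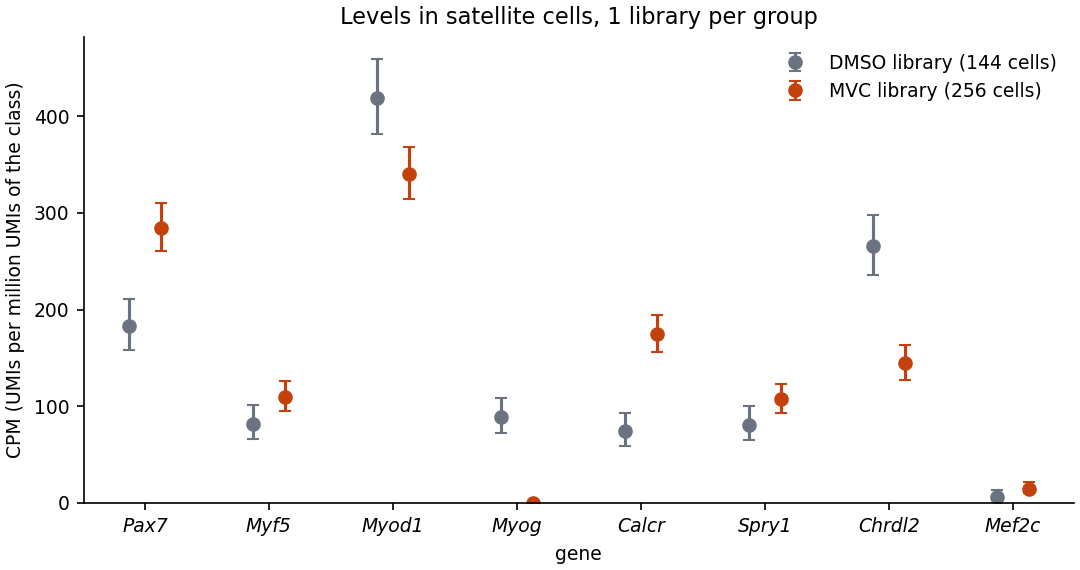
Level of each gene in MuSC-like cells in CPM (points) with exact Poisson 95% intervals (bars) for the DMSO library (144 cells) and the MVC library (256 cells), 1 library per group. The intervals of the libraries do not overlap for Pax7, Myod1, Myog, Calcr and Chrdl2, and the whole Myog level of the DMSO library came from 1 cell. The bars cover counting error only and leave out the uneven spread of UMIs over cells. How many of all genes would separate in this way was not counted.

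Pax7 (ENSMUSG00000028736; chromosome 4, 139737062 to 139833528, minus strand of GRCm38) encodes the paired-box factor that maintains the satellite cell lineage. It reached 183 CPM in the DMSO library (199 UMIs; 95% CI 159 to 210.5) and 285 CPM in the MVC library (523 UMIs; 95% CI 261 to 310.3), a ratio of 1.56 (95% CI 1.32 to 1.84). A Pax7 UMI was found in 53.5% and 60.2% of the cells, and after each cell was thinned to 2000 UMIs in 25.2% of 139 and 37.8% of 246 cells. The thinned shares differed by 12.6 percentage points (95% CI 2.88 to 21.6). Endothelial-like cells, which should lack Pax7, showed it in 0.075% and 0.070% of cells at median depths of 4267 and 3459 UMIs, so the shares in MuSC-like cells were far above that background. In endothelial-like cells Myod1, Calcr and Chrdl2 were found in at most 0.225% of cells, and Myf5 in 0 of 1331 and 0 of 1437, which allows up to 0.225% and 0.209%. The size of the difference depended on 1 DMSO cell that held much RNA but no Pax7 (described with Myog below). Without it the ratio was 1.46 (95% CI 1.23 to 1.72), and without all mixed cells 1.47 (95% CI 1.24 to 1.75), both short of 1.5-fold. Weighting cells equally gave 237.5 CPM in the DMSO and 308 CPM in the MVC library. Choosing the cells by satellite cell markers with no clustering (581 cells) gave a log2 ratio of 0.91 in place of 0.64. Of these cells 200 (34.4%) lay in other clusters, with 99 tenocyte-like and 68 FAP-like cells.

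Myf5 (ENSMUSG00000000435; chromosome 10, 107482908 to 107486134, minus strand) encodes a myogenic determination factor that most quiescent satellite cells transcribe. Its level was 81.9 CPM in the DMSO library (89 UMIs; 95% CI 65.8 to 101) and 110.0 CPM in the MVC library (202 UMIs; 95% CI 95.4 to 126). The ratio of 1.34 (95% CI 1.04 to 1.74) became 1.26 (95% CI 0.975 to 1.63) without that DMSO cell, and also 1.26 (95% CI 0.976 to 1.65) without all mixed cells. Myf5 was found in 12.95% and 13.01% of thinned cells, with a difference of 0.058 points (95% CI -7.47 to 6.69).

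Calcr (ENSMUSG00000023964; chromosome 6, 3685680 to 3764714, minus strand) showed the highest ratio of the genes with at least 250 UMIs here. Its level was 74.6 CPM in the DMSO library (81 UMIs; 95% CI 59.2 to 92.7) and 174 CPM in the MVC library (320 UMIs; 95% CI 156 to 194.5), a ratio of 2.34 (95% CI 1.83 to 3.02). It was detected in 26 of 144 cells (18.1%) and 72 of 256 cells (28.1%). Thinned shares were 9.35% and 18.7%, a difference of 9.35 points (95% CI 1.93 to 15.9). Calcr UMIs were concentrated in few cells. The 5 cells with the most UMIs held 56.8% of them in the DMSO library, with at most 17 in 1 cell, and 40.6% in the MVC library, with up to 54 in 1 cell. For comparison, the top 5 cells held 22.1% and 17.8% of the Pax7 UMIs. The ratio was 2.19 without the DMSO cell named above and 2.07 (95% CI 1.61 to 2.69) without all mixed cells.

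Spry1 (ENSMUSG00000037211; chromosome 3, 37639947 to 37644598, plus strand) encodes an inhibitor of receptor tyrosine kinase signalling. It stood at 81.0 CPM in the DMSO library (88 UMIs; 95% CI 65.0 to 99.8) and 107 CPM in the MVC library (197 UMIs; 95% CI 92.8 to 123). The ratio was 1.32 (95% CI 1.03 to 1.72), and 1.25 (95% CI 0.970 to 1.63) without the same DMSO cell, and 1.27 (95% CI 0.980 to 1.67) without all mixed cells. Of the cells, 27.8% and 36.3% had a Spry1 UMI, and 11.5% and 17.5% after thinning, a difference of 5.97 points (95% CI -1.68 to 12.7). Macrophage-like cells, with the lowest Spry1 level of the larger classes, had a Spry1 UMI in 5.33% and 2.86% of cells at median depths of 11396.5 and 9511.5 UMIs.

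Chrdl2 (ENSMUSG00000030732; chromosome 7, 100006172 to 100034728, plus strand) encodes chordin-like 2, a secreted protein of the family that binds bone morphogenetic proteins (BMPs). Among the genes with at least 250 UMIs it was the one past 1.5-fold lower in the MVC library. Its level was 265 CPM in the DMSO library (288 UMIs; 95% CI 235 to 298) and 144 CPM in the MVC library (265 UMIs; 95% CI 127.5 to 163), a ratio of 0.544 (95% CI 0.459 to 0.645). It was detected in 100 of 144 DMSO cells (69.4%) and 118 of 256 MVC cells (46.1%). After thinning the shares were 43.2% and 24.0%, a difference of -19.2 points (95% CI -28.8 to -9.40). Its UMIs were spread more evenly than those of Calcr, with 15.3% and 18.5% in the top 5 cells. Its log2 ratio of -0.88 lay between -1.11 and -0.83 under every other setting run, except that it was -0.56 in the 581 cells chosen by satellite cell markers, 34.4% of them from other clusters.

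Myod1 (ENSMUSG00000009471; chromosome 7, 46376474 to 46379099, plus strand) encodes the determination factor that rises on activation. It reached 419 CPM in the DMSO library (455 UMIs; 95% CI 381 to 459) and 340 CPM in the MVC library (625 UMIs; 95% CI 314 to 368). The ratio of 0.813 (95% CI 0.719 to 0.919) was short of 1.5-fold. The share of cells with a Myod1 UMI was 52.8% in the DMSO and 39.8% in the MVC library, a difference of -12.9 points (95% CI -22.8 to -2.78), and -8.74 points (95% CI -18.5 to 0.797) after thinning. Cells with Myod1 held a median of 4.5 UMIs of it in the DMSO and 4.0 in the MVC library. In the 581 cells chosen by satellite cell markers, 34.4% of them from other clusters, the log2 ratio was -0.017 in place of -0.30 and the difference in detection -2.04 points.

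Myog (ENSMUSG00000026459; chromosome 1, 134289989 to 134292548, plus strand) encodes myogenin, which commits myoblasts to differentiation. All 97 Myog UMIs of the MuSC-like cells came from 1 DMSO cell. None of the 256 MVC cells had any, which allows a share of up to 1.17%, and in the DMSO library 1 of 144 cells is 0.694% (95% CI 0.018 to 3.81). Elsewhere 2 Myog UMIs were found in 2 cells. The Myog cell was the deepest MuSC-like cell, with 69122 UMIs and 7462 genes against 24976 UMIs in the next. It held 6.36% of the UMIs of the DMSO class and was itself a mixed cell, with more marker UMIs of another class than of satellite cells. Its doublet score was 0.64, against a median of 0.30 in DMSO MuSC-like cells and 0.80 at the lowest score called, so it was not called a doublet. Whether it was 1 cell or several was not tested. It carried 31 Myod1 UMIs, 3 of Mef2c and 1 of Spry1, and none of Pax7, Myf5, Calcr or Chrdl2. Of 20 differentiation genes 18 were detected in it. Among them were the giant sarcomere proteins Ttn (1078 UMIs) and Neb (243), embryonic myosin Myh3 (111), cardiac actin Actc1 (83), troponin Tnnt2 (71), the fusion proteins Mymx (58) and Mymk (52), and the acetylcholine receptor subunit Chrna1 (72). All Mymk, Mymx, Tnnt2, Myh3 and Actc1 UMIs of the DMSO MuSC-like cells were in this cell. Its cell cycle genes were limited to 4 of 16, led by Ccnd1 with 31 UMIs. With a stricter cell filter it clustered with the myofibre-like cells.

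The start of Myog is printed because the transcripts of its known regulators, Myod1 and Mef2c, were found beside it in that cell. RefSeq start regions (GRCm38.p6; 250 bases before and 50 after each start) were found for 6 of the 8 genes, all but Myod1 and Chrdl2. The 250 bases before the RefSeq Myog start lie at chr1:134289754-134290003 on the plus strand. They run past 134289989, where the gene position given above, from GENCODE, begins. Motif positions are counted from the RefSeq start. Capitals mark both kinds of motif searched on both strands, the E-box CANNTG, bound by Myod1 and its relatives, and the MEF2 core TATTTAT. The E-boxes begin at -138 and -12 and the MEF2 core at -61 from the start, without overlap.
Myog, 250 bases before the start: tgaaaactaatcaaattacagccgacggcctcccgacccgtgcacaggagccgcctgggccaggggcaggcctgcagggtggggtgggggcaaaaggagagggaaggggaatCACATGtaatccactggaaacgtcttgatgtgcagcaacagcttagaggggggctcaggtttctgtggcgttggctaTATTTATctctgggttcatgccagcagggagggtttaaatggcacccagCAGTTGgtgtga
An E-box was present in 72.3% of 32851 start regions of this length, a MEF2 core in 5.60% and both in 4.30%. The start regions of Pax7 and Myf5 held neither motif, and that of Spry1 held 2 E-boxes. An E-box was also found at 1 of 2 Calcr starts and at 2 of 3 Mef2c starts, and no MEF2 core at any of these. These matches are letters in a window, and no binding was measured here.

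Mef2c (ENSMUSG00000005583; chromosome 13, 83504034 to 83667080, plus strand) encodes a MADS-box factor that works with the myogenic factors during differentiation, and also acts in endothelium, smooth muscle and B cells. MuSC-like cells had the lowest Mef2c of the 14 named classes, 6.45 CPM in the DMSO library (7 UMIs in 3 cells) and 14.7 CPM in the MVC library (27 UMIs in 15 cells). The ratio of 2.28 had an interval of 0.969 to 6.21. All 7 DMSO UMIs and 20 of the 27 MVC UMIs sat in the mixed cells, so the Mef2c of this class was at or near 0 without them. The related factors Mef2a (252 CPM in the DMSO and 238 CPM in the MVC library) and Mef2d (81.0 and 98.0 CPM) were detected in the class at ratios of 0.944 (95% CI 0.809 to 1.10) and 1.21 (95% CI 0.933 to 1.58).

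Outside the MuSC-like cells Myog was almost absent (2 UMIs), and the other 7 genes fell into 3 kinds. Pax7, Myf5, Myod1, Calcr and Chrdl2 were close to private to the class, Spry1 was shared by many stromal and vascular classes, and Mef2c was mainly expressed elsewhere. MuSC-like cells held 94.3% of all 766 Pax7 UMIs, 91.2% of 319 Myf5 UMIs, 91.5% of 1180 Myod1 UMIs, 92.2% of 435 Calcr UMIs and 90.8% of 609 Chrdl2 UMIs. The 44 Pax7 UMIs found elsewhere were in 16 cells, of which 10 also carried at least 2 of 7 other satellite cell markers and held 86.4% of those UMIs. These markers were carried by 10 of the 12 outside cells with Myf5, but by only 9 of 23 with Myod1, 5 of 16 with Calcr and 9 of 20 with Chrdl2. The highest level of Pax7 in another class, 23.1 CPM in lymphatic endothelial-like cells of the MVC library, came from 12 UMIs in 1 cell. Myod1 reached 147 CPM in the 25 myofibre-like cells of the MVC library through 14 UMIs in 1 cell.

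**Figure D2:**
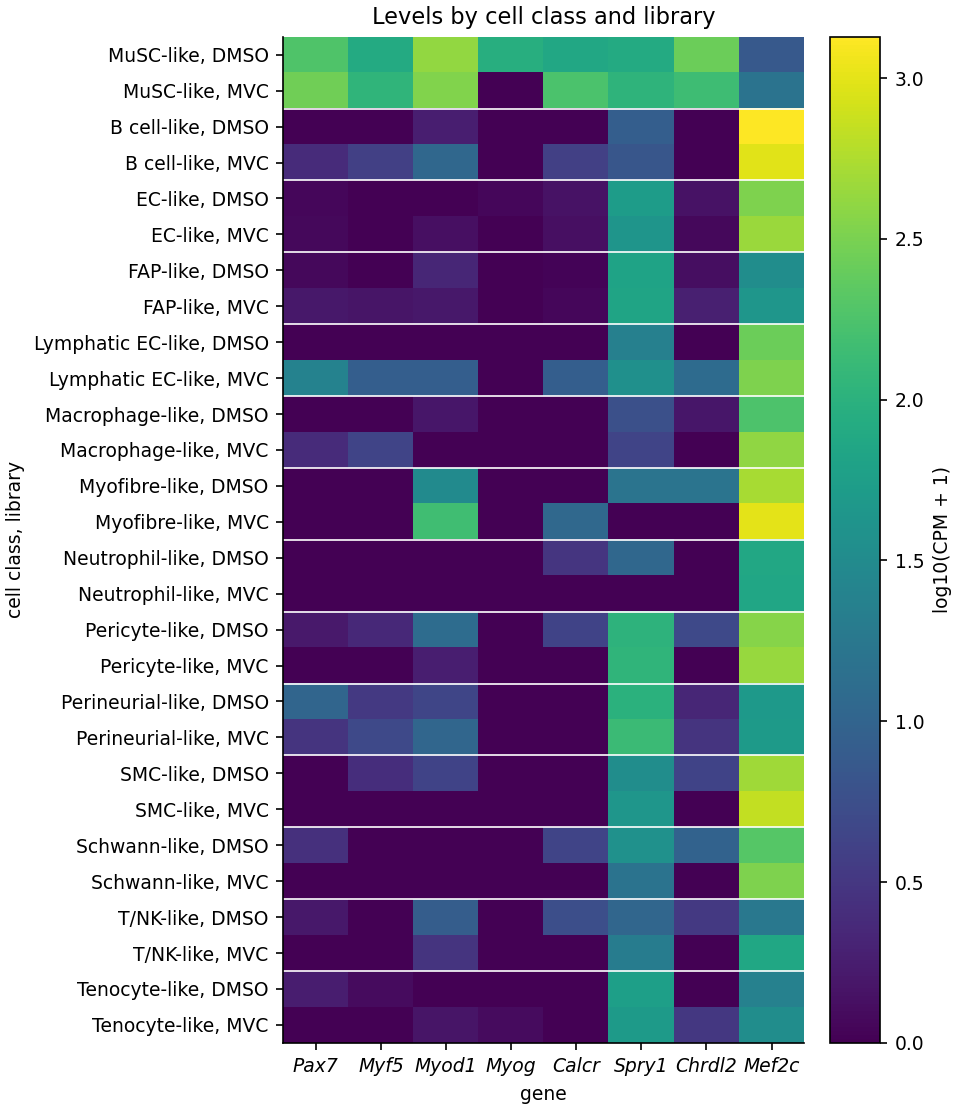
Levels of the 8 genes as log10(CPM + 1) (colour scale) in each named cell class and library, 1 row per class and library. Pax7, Myf5, Myod1, Calcr and Chrdl2 are brightest in the MuSC-like rows, Spry1 is spread over stromal and vascular rows, and Mef2c is dark in the MuSC-like rows and brightest in B cell-like cells.

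Spry1 in MuSC-like cells held 6.53% of its 4363 UMIs. Its levels in perineurial-like cells (99.5 CPM in the DMSO and 136.5 CPM in the MVC library) and pericyte-like cells (104 and 110 CPM) overlapped the interval of MuSC-like cells in both libraries. FAP-like cells had 64.9 and 66.5 CPM, and endothelial-like cells 53.3 and 42.2 CPM. In FAP-like cells the ratio of the libraries was 1.03 (95% CI 0.932 to 1.13) and in pericyte-like cells 1.05 (95% CI 0.828 to 1.33). Macrophage-like cells, with 4.87 and 3.33 CPM, had the lowest levels among classes of over 100 cells in each library.

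Mef2c reached its highest level in B cell-like cells of the DMSO library, with 1344 CPM (95% CI 1279 to 1411) there and 961 CPM (95% CI 889 to 1037) in the MVC library. Myofibre-like cells, only 14 and 25 in number, had 525 and 1008 CPM, and in the MVC library their interval (817 to 1231) overlapped that of B cell-like cells. Smooth muscle-like cells had 487 and 693.5 CPM, pericyte-like cells 364 and 445 CPM, and endothelial-like cells 330 and 455 CPM. The endothelial ratio was 1.38 (95% CI 1.30 to 1.46). Macrophage-like cells differed most among the classes with over 100 UMIs of Mef2c in each library, from 179 CPM (331 UMIs) to 405 CPM (851 UMIs), a ratio of 2.26 (95% CI 1.99 to 2.58) that stayed at 2.17 without doublet calls. In that class 15.3% of the genes with at least 20 UMIs were past 1.5-fold higher in the MVC library. Schwann-like cells had 203 and 335 CPM, a ratio of 1.65 (95% CI 1.32 to 2.08), where 17.2% of genes passed. T/NK-like cells, below that UMI limit with 29 and 37 UMIs, had 16.7 and 72.0 CPM. Their ratio was 4.31 (95% CI 2.58 to 7.27), where 19.4% of genes passed. Of 13 classes, 9 had more Mef2c in the MVC library with an interval clear of 1, and 1 had less.

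Detection states of single cells were read from Pax7 and Myod1 together, after thinning, so that depth was equal. In every state a gene without a UMI at this depth cannot be read as absent. Cells with a Pax7 UMI but no Myod1 UMI made up 15.1% in the DMSO library (21 of 139; 95% CI 9.60 to 22.2) and 30.5% in the MVC library (75 of 246; 95% CI 24.8 to 36.65). The difference was 15.4 points (95% CI 6.62 to 23.2). Cells with both genes were 10.1% and 7.32%, a difference of -2.76 points (95% CI -9.42 to 2.85). Cells with Myod1 alone were 25.9% and 19.9%, a difference of -5.98 points (95% CI -15.04 to 2.54). Neither gene was found in 48.9% and 42.3%, which at 2000 UMIs per cell cannot be read as absence. With all UMIs the Pax7-only share was 27.1% in the DMSO and 39.1% in the MVC library, and the share with both was 26.4% and 21.1%.

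**Figure D3:**
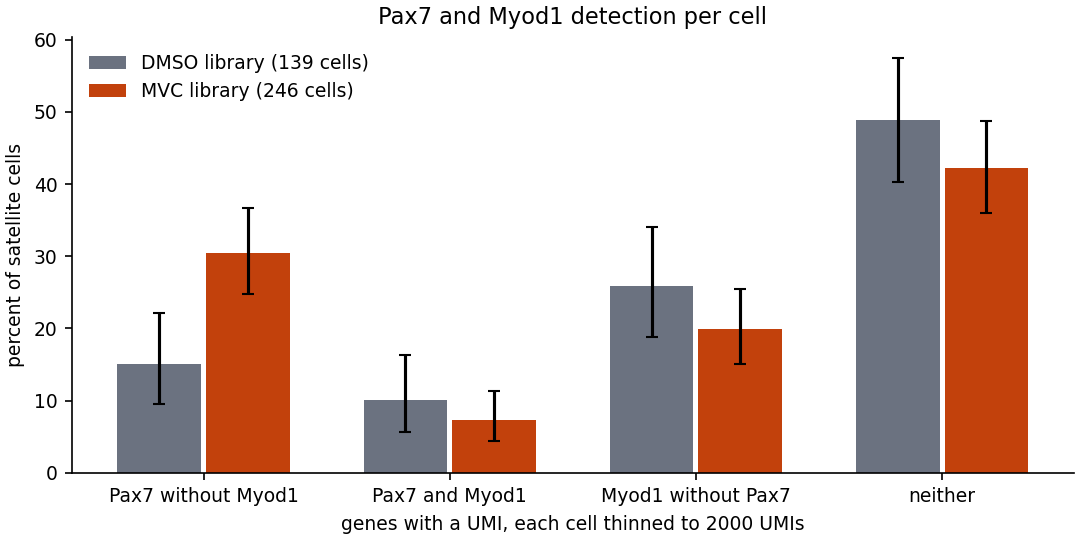
Percent of MuSC-like cells (bars, from 0) in each detection state of Pax7 and Myod1 after thinning to 2000 UMIs, with exact binomial 95% intervals, in the DMSO (139 cells) and MVC (246 cells) libraries. Cells with Pax7 alone were 15.1% and 30.5%, and the intervals of the other 3 states overlap between the libraries.

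Pairs of the 6 genes other than Myog and Mef2c were then compared within each library. Of 15 pairs compared after thinning, 1 in the DMSO library and 4 in the MVC library had an interval of the difference clear of 0, and no such pair was shared. The DMSO library had 139 such cells against 246, so these counts cannot be compared between the libraries. The same count over pairs of other genes was not made. The DMSO pair was Myf5 and Calcr, with Calcr in 22.2% of 18 cells with Myf5 and 7.44% of 121 without (difference interval 0.226 to 38.0 points), against 15.6% and 19.2% in the MVC library. Calcr was found in 31.2% of the 93 MVC cells with Pax7 and in 11.1% of the 153 without it, a difference of 20.1 points (95% CI 9.68 to 30.9). In the DMSO library the shares were 11.4% of 35 and 8.65% of 104 cells, and the interval of the difference (-7.04 to 17.85 points) did not exclude the lower end of the MVC interval. The median depths before thinning were 6274 and 6884 UMIs in MVC cells with and without Pax7. Myod1 was less frequent in MVC cells with Pax7 (19.4%) than without it (32.0%), a difference of -12.7 points (95% CI -22.95 to -1.20). The DMSO shares were 40.0% and 34.6%. In the MVC library Calcr was found in 30.2% of cells with Spry1 and 16.3% of cells without it, and Chrdl2 in 40.6% of cells with Myf5 and 21.5% of the others. In the DMSO library Calcr was found in 0 of 16 cells with Spry1 (interval up to 20.6%) and 10.6% of 123 without it, and Chrdl2 in 44.4% and 43.0%. Chrdl2 and Pax7 differed between the libraries in the point estimates, with 57.1% against 38.5% in DMSO cells with and without Pax7 and 24.7% against 23.5% in MVC cells, but the DMSO interval (-0.224 to 35.95 points) held 0. With all UMIs, where depth was not equalised, Myf5 with Pax7 and Chrdl2 with Myf5 were clear of 0 in both libraries. Myf5 was in 40.3% and 16.4% of DMSO cells with and without Pax7 (difference interval 9.08 to 37.0 points), and in 42.2% and 19.6% of MVC cells (11.1 to 32.85 points). There the DMSO interval of Myf5 and Calcr (-8.1 to 20.5 points) and the MVC interval of Pax7 and Myod1 (-23.9 to 0.234 points) held 0. Whether the libraries differ in any of these pairings was not tested.

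**Figure D4:**
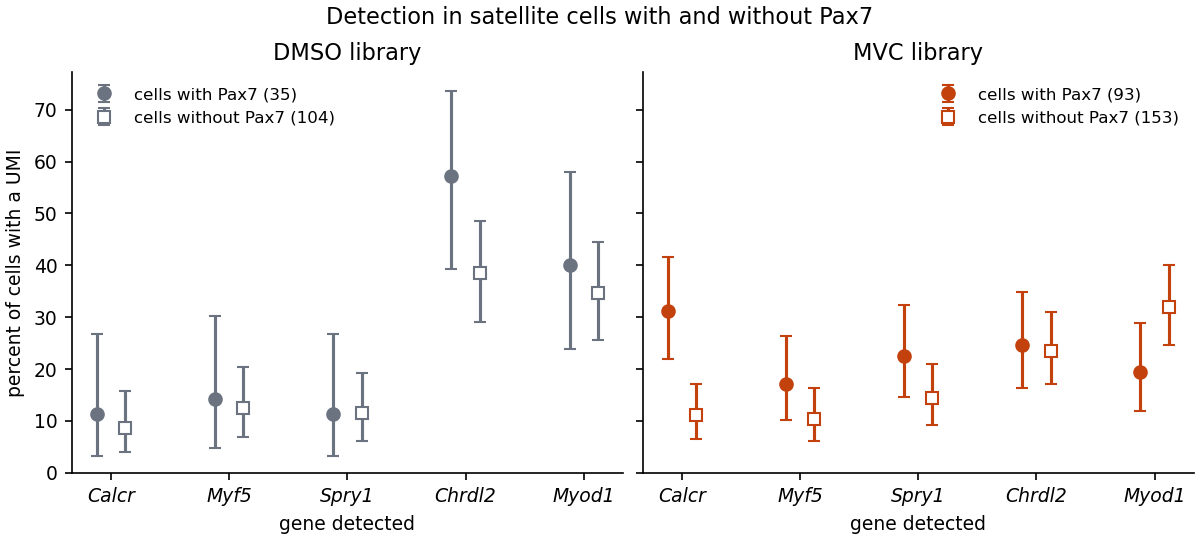
Percent of MuSC-like cells with a UMI of Calcr, Myf5, Spry1, Chrdl2 or Myod1 among cells with Pax7 (filled circles) and without Pax7 (open squares), after thinning to 2000 UMIs, with exact binomial 95% intervals, DMSO library on the left and MVC library on the right. In the MVC library Calcr was at 31.2% and 11.1% and Myod1 at 19.4% and 32.0%. The paired intervals are separate for Calcr in the MVC library and overlap for Myod1 there and for every gene in the DMSO library.

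Across all genes, few moved with Pax7 in both libraries. Of 2511 genes compared after thinning, 48 (1.91%) were at least 1.5-fold higher in cells with Pax7 in both libraries and 51 (2.03%) lower. The genes named in this and the next paragraph were chosen after their values were seen. Gas1, a growth arrest-specific membrane protein, was one of them, with 400.0 CPM in DMSO cells with Pax7 and 76.9 CPM in those without, and 532 and 49.0 CPM in MVC cells. Fgfr4, a satellite cell growth factor receptor, had log2 ratios of 1.78 in DMSO and 1.24 in MVC cells, with a pseudocount of 50 CPM. The phagocytic receptor Megf10 was at 186 and 72.1 CPM in DMSO and 193.5 and 49.0 CPM in MVC cells, from 28 and 51 thinned UMIs in the DMSO and MVC libraries. Fgfr4 and Megf10 were also among the markers used to name the class, and mixed cells were kept in this comparison. The chemokine Cxcl2 was lower, at 143 and 486 CPM in DMSO and 220 and 827 CPM in MVC cells. The early response gene Fos was higher in cells with Pax7, at 1057 and 505 CPM in DMSO and 2016 and 941 CPM in MVC cells.

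Gas1 was also higher in cells with Calcr. It was at 385 CPM in DMSO cells with Calcr and 135 CPM without it, and at 543.5 and 160.0 CPM in MVC cells. Wdr95 was at 346 and 47.6 CPM in DMSO and at 413 and 57.5 CPM in MVC cells. The scavenger receptor Colec12 was at 461.5 and 159 CPM in DMSO and at 370 and 117.5 CPM in MVC cells. Genes past 1.5-fold in both libraries were 55 higher (2.19%) and 81 lower (3.23%), and only 13 DMSO cells had Calcr after thinning. Cells with Myod1 had less Wdr95, at 10.0 against 112 CPM in DMSO and 29.9 against 159 CPM in MVC cells. The Notch target Hes1 was at 40.0 against 95.5 CPM in DMSO cells and at 37.3 against 165 CPM in MVC cells. These levels rested on few UMIs after thinning, 21 in the DMSO and 61 in the MVC library for Wdr95 and 21 and 64 for Hes1. For Myod1, 22 genes (0.876%) were higher and 24 (0.956%) lower in both libraries. Chrdl2 marked off the fewest genes, 3 higher (0.119%) and 20 lower (0.796%).

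The wider pathways gave the setting for the 8 genes. Of 21 measured genes of the quiescence and Notch list, 7 were past 1.5-fold higher in the MVC library and 1 lower, beside 14.8% and 12.6% of all genes. The median log2 ratio was 0.27 against -0.022 over all genes. Without the Myog cell 6 were higher and 1 lower, beside 16.7% and 11.3% of all genes. Without mixed cells 3 of 20 were higher and 1 lower, beside 1353 and 1029 of 8623 genes. The count of higher genes was then near the share of all genes, and the median was 0.18 against -0.0028. The receptor Notch3 was at 52.5 CPM in the DMSO and 165 CPM in the MVC library, Hey1, a Notch target, at 5.52 and 18.5 CPM, and Hes1 at 55.2 and 101 CPM. Other genes of the list were lower in the MVC library, short of 1.5-fold. Rbpj had a ratio of 0.775 (95% CI 0.689 to 0.871), the receptor Notch2 0.778 (95% CI 0.626 to 0.970) and Foxo1 0.794 (95% CI 0.638 to 0.991). Pdk4, a metabolic kinase, was lower, at 58.0 and 31.6 CPM. The list genes with the most UMIs moved less. Sdc4 had a ratio of 0.783 (95% CI 0.738 to 0.831), Gpx3 1.11, Vcam1 1.44 and Tenm4 1.24. Notch3 is also a pericyte marker, and pericyte markers in these cells summed to 86.55 CPM in the DMSO and 221 CPM in the MVC library. Notch3 itself made up most of that sum, with 57 of 94 UMIs in the DMSO and 303 of 405 UMIs in the MVC library. Without mixed cells Notch3 was at 55.5 and 170.0 CPM.

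Around Calcr, its relative Calcrl, a receptor for calcitonin gene-related peptide and adrenomedullin, was at 169 CPM in the DMSO and 336 CPM in the MVC library, a ratio of 1.98 (95% CI 1.68 to 2.35), and 1.91 without mixed cells. The accessory protein Ramp2 was at 22.1 and 27.8 CPM, and Ramp1 and Ramp3 had at most 9 UMIs in a library. Among 11 growth factor receptor and Sprouty genes 2 were past 1.5-fold higher (1 without the Myog cell) and none lower, a count of higher genes near the share of all genes. Spred1 had a ratio of 1.55 (95% CI 1.36 to 1.76) and Fgfr1 of 1.01 (95% CI 0.938 to 1.09). Of 8 chordin family members and BMP antagonists only Fst, Fstl1 and Fstl3 had at least 20 UMIs. Their ratios, which carry no pseudocount, were all past 1.5-fold higher, beside 14.8% of all genes. Of those still at 20 UMIs, 1 of 2 passed without the Myog cell and 0 of 1 without mixed cells. The intervals of Fst (0.586 to 4.92) and Fstl3 (0.763 to 9.73) spanned 1, and with the pseudocount of 10 CPM the list median was 0.45. Fstl1 was at 153 and 254 CPM, a ratio of 1.66. Stromal cells also express Fstl1, FAP markers in these cells stood at 394 and 1480 CPM, and without mixed cells (409 and 475 CPM) the Fstl1 ratio was 1.49 (95% CI 1.24 to 1.80), short of 1.5-fold. The inhibitor Id1 was at 76.4 CPM in the DMSO and 26.7 CPM in the MVC library, a ratio of 0.349 (95% CI 0.240 to 0.503), Id3 at 743 and 637 CPM, and the E protein Tcf4 at 1112 and 913 CPM. Of the cell cycle list 5 of 16 genes had enough UMIs, 1 past 1.5-fold higher and 2 lower (2 and 2 without the Myog cell). Mki67, the proliferation marker, had 0 UMIs in the DMSO and 3 in the MVC library, Pcna was at 70.0 and 44.7 CPM, and the D-type cyclin Ccnd2 had a ratio of 2.84 (95% CI 1.06 to 9.53) from 5 and 24 UMIs. Without mixed cells Ccnd2 had 1 and 8 UMIs, and the interval (0.638 to 211) spanned 1. Ccnd1 had a ratio of 0.998 (95% CI 0.690 to 1.46), which became 2.64 (95% CI 1.55 to 4.75) without the Myog cell.

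Differentiation genes gave the value that depended most on a single cell. Of 13 measured genes 12 were past 1.5-fold lower in the MVC library, with a median log2 ratio of -2.53. Without the Myog cell 6 genes had enough UMIs, 3 were past 1.5-fold higher, none lower, and the median was 0.30, beside 16.7% and 11.3% of all genes. The myofibre genes went from a median of -1.18 to 1.43 by the same step. The immediate early and heat shock genes, which rise during tissue digestion, were higher in the MVC library in 22 of 26 cases, beside 4419 of 9203 genes. Past 1.5-fold were 13 higher and 1 lower, beside 14.8% and 12.6% of all genes. The median log2 ratio was 0.59, against -0.022 over all genes, and 0.50 without the Myog cell. Without mixed cells 12 were past 1.5-fold higher and 1 lower, with a median of 0.48. Fos was at 465 CPM in the DMSO and 1248 CPM in the MVC library, and Hspa1a at 2373 and 4131 CPM. These genes moved in the same direction as Pax7 and Calcr, and their part in those differences was not tested.

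**Figure D5:**
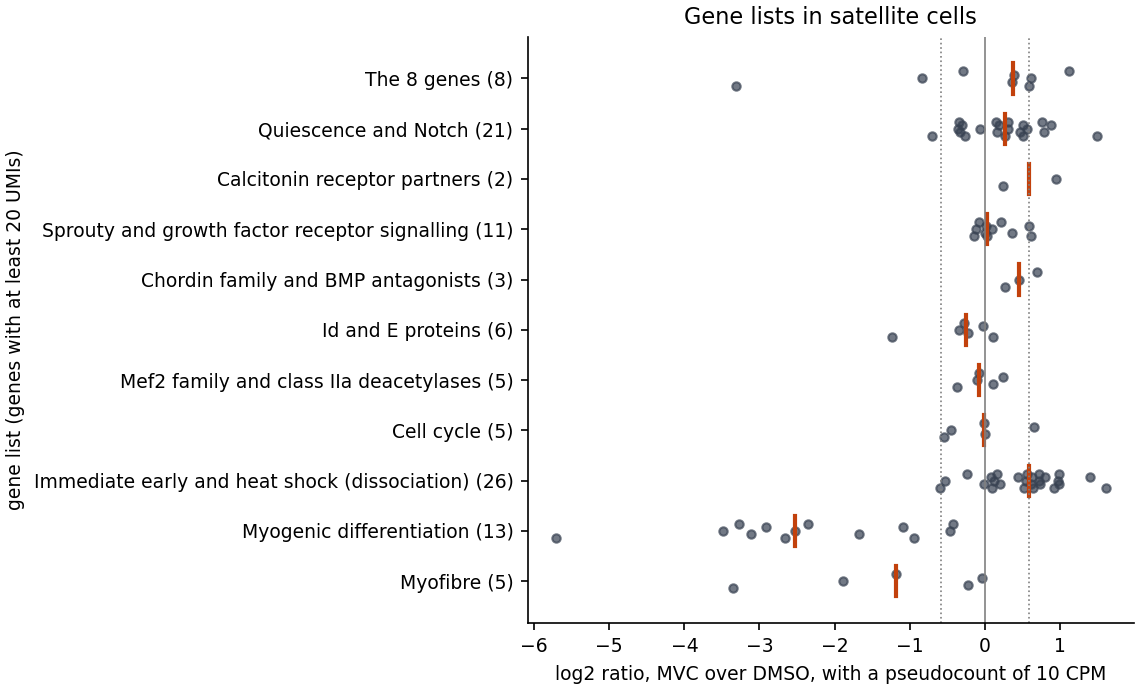
Log2 ratio of MVC over DMSO levels in MuSC-like cells, with a pseudocount of 10 CPM, for each gene with at least 20 UMIs (points), by list (counts past 1.5-fold in the text use ratios with no pseudocount), with the list median (vertical bar) and dotted lines at 1.5-fold either way. The differentiation and myofibre genes lie to the left, with medians of -2.53 and -1.18 that became 0.30 and 1.43 without the Myog cell, and the dissociation genes lie mostly to the right with a median of 0.59. Without all mixed cells no myofibre gene had 20 UMIs.

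Genes with the most similar pattern were sought over 26 points (13 classes in each library), among 16804 genes, by Pearson's r of log2(CPM + 10). The points share libraries, and the values are descriptions. Genes close to private to MuSC-like cells give a high r by that alone, since they are high at the points of that class and low at the others. Cdh15 was also among the markers used to name the class. Pax7 was most like Myf5 (r = 0.984) and Cdh15 (0.977), Myf5 most like Pax7 and Tmem61 (0.982), and Myod1 was close to Cdh15 (0.974). Calcr was nearest to the transcripts Gm26834 (0.978) and Gm13373 (0.970), and Chrdl2 to 1110002E22Rik (0.981) and Ros1 (0.978). Spry1 was nearest to Nectin3 (0.905) and Glce (0.874). Mef2c had the least similar neighbours, Mgrn1 (0.799) and Plekho1 (0.795). The match of Myog with Actc1 and Mymx, r = 1.0, rested on the 1 Myog cell.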

How the data were processed

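Single-cell RNA-seq libraries of limb muscle mononuclear cells, 1 from DMSO-treated and 1 from MVC-treated mice, were analysed. The deposited values were raw UMI counts per gene and cell barcode, made by the authors with Cell Ranger 7.0.0 and the mm10 build per the labels, with no normalisation and no pooling of the libraries. The submitters' notes also name Seurat 5.0.1. Which annotation was used, and whether intronic reads were counted, was not given in the sources used here. Reads of overlapping or near-identical genes could be split by that counting.

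The DMSO library held 5812 barcodes (39150511 UMIs) and the MVC library 6047 (36063575 UMIs). The study's own limits were applied: a cell needed 500 genes or more and no more than 10% of its UMIs from mitochondrial genes. Counts were scaled to 10000 UMIs per cell, log-transformed and clustered on 30 principal components of 2000 variable genes, from which the 8 genes and the differentiation list were dropped (20 neighbours, Leiden resolution 1; scanpy 1.11.5, leidenalg 0.10.2), without integration. This gave 28 clusters, of which 23 were named in 14 classes from marker genes (at least 3 raised by a log2 fold of 1 in at least 20% of cells) and 5, most of them haemoglobin-rich, stayed unnamed. The names were rebuilt, since no annotation of the authors was used. Doublets were scored against simulated pairs and called at 0.8% per 1000 cells (4.34% and 4.36%). They were kept in the main values.

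Levels were summed UMIs over all UMIs of a class and library, scaled to 1e6 (CPM), with exact Poisson intervals. Shares had exact (Clopper-Pearson) intervals. Intervals of ratios were exact and conditional on the summed count, and those of differences followed Newcombe. All were at 95% and cover counting error only. A share at 0 was given the limit of 3 cells. To equalise depth each cell was thinned to 2000 UMIs, which left out 5 DMSO and 10 MVC cells of the class. List medians used genes with at least 20 UMIs and a pseudocount of 10 CPM. The interval code was tested on simulated data. The 8 genes, the lists and the comparisons were chosen with earlier results of these data known. Named genes were the 8 genes, up to 4 genes of each list with the most UMIs, the 2 genes most like each in pattern (1 of them is not reported here), and others said to be chosen after their values were seen. Of the list genes, Notch3, Hey1, Hes1, Rbpj, Notch2, Foxo1, Pdk4, Fos, Mki67, Ccnd2, Actc1, Tnnt2, Mymx and Mymk were named after their values were seen. Alternatives were a stricter cell filter, another resolution, the genes left in the clustering, doublets removed, cells chosen by markers, thinning, other scalings and pseudocounts, and subtraction of the lowest class. No correction for free RNA entered the main values. Start regions came from RefSeq (GRCm38.p6) and gene positions from GENCODE (GRCm38).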

Additional observations from a re-analysis of the deposited data

How the results depend on the processing

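No paired analysis was possible because each group held 1 library. For 47 results, 219 values were computed under alternatives, of which 207 stayed within the counting interval or spread used for the reported value and 12 moved outside it. Of values near 0, 5 changed sign: cells with neither Pax7 nor Myod1 (0.955 to -6.64 points after thinning, and as below), the list medians of cell cycle (-0.013 to 0.031) and all genes under median-ratio scaling, and Spry1 in pericyte-like cells without doublet calls (0.072 to -0.0032). Leaving out the Myog cell, or cells with more markers of another class, was chosen after seeing the data. Defining MuSC-like cells by at least 2 of 7 markers with no clustering (581 cells, 34.4% from other clusters) moved the log2 ratio of Pax7 from 0.64 to 0.91, of Myod1 from -0.30 to -0.017 and of Chrdl2 from -0.88 to -0.56. It moved the difference in detection of Myod1 from -12.9 to -2.04 points, of Chrdl2 from -23.4 to -7.59 and of Mef2c from 3.78 to 7.80, and that of cells with neither Pax7 nor Myod1 from 0.955 to -11.0 points. Under the mean of per-cell CPM the log2 ratio of Pax7 was 0.38. A pseudocount of 1 CPM gave list medians of 0.73 for BMP antagonists and -4.52 for differentiation, and the median of all genes was -0.038 for genes of at least 50 UMIs and 0.022 with scaling by the median ratio. The causes were not tested. Pax7 fell below 1.5-fold without the Myog cell (0.54), without mixed cells (0.56) and under the per-cell mean. The Mef2c log2 ratio could not be computed without mixed cells, where the DMSO count was 0, or after thinning or subtraction of the lowest class. Myog, at 0 in the MVC library, had no ratio. Mef2c, with 7 and 27 UMIs, was limited by depth.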
